A study of Mus musculus with 8 samples.

Results

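The genes described here drive the cell division cycle: 40 listed genes, 17 that act around the G1 phase and DNA synthesis (G1/S) and 23 that act in G2 and mitosis (G2/M). Every probe set that the array annotation assigns to 1 of these genes alone was taken, which gave 73 probe sets, 35 for G1/S and 38 for G2/M genes, of 22626 probe sets and 12393 genes in all. The rule goes by gene names, but the genes were chosen with earlier results of these data known. RNA from whole mouse lenses at embryonic day 15.5 (E15.5) was measured on Affymetrix expression arrays, 1 array for each sample.

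Lens samples of dnBrg1 embryos (n = 4) were compared with lens samples of wild type embryos (n = 4) of the same age, all of mixed background. The dnBrg1 embryos carry a transgene for dominant-negative Brg1 (Brg1 being the motor subunit of SWI/SNF chromatin remodeling complexes) under the αA-crystallin promoter. That promoter is active in lens fiber cells that have left the cell cycle, and the transgenic line came from 1 heterozygous founder with wild type littermates as controls. The comparison asks which lens transcripts change in level when Brg1 cannot work normally.

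In the cell cycle, D-type cyclins with Cdk4 and Cdk6 and then E-type cyclins with Cdk2 release E2F factors, which switch on genes for DNA replication. A later wave, driven by B-Myb and FoxM1 with the MuvB core of the DREAM complex, supplies the kinases, motors and checkpoint proteins of mitosis, and the anaphase-promoting complex then ends mitosis by degrading cyclins. In the embryonic lens the dividing cells lie in the anterior epithelium, and cells that become fibers leave the cycle at the equator.

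The G2/M genes are known for a promoter element, the cell cycle genes homology region (CHR), often found with CCAAT boxes, and the G1/S genes for E2F sites. These elements are shown first because they do not depend on the arrays. RefSeq promoter windows (build GRCm38.p6, 250 bases before and 50 bases after a transcription start) were matched by symbol for 30 of the 40 genes, as 31 windows. The CHR letters TTTGAA, searched on both strands, were in 12 of 17 G2/M windows (70.6%), in 0 of 14 G1/S windows and in 17.9% of all 32851 windows. CCAAT, on both strands, was in 14 G2/M windows (82.4%), in 5 G1/S windows (35.7%) and in 37.4% of all. An E2F-like match, TTTNNCGC on both strands, was in 1 G2/M window (5.88%), in 5 G1/S windows (35.7%) and in 5.17% of all. Such matches are letters in a window and were not tested for binding.

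CHR matches of 9 G2/M genes follow in the direction of the gene, 5′ to 3′, with the matched letters in capitals and their position in brackets (TTCAAA is the same element on the other strand, and the match farthest upstream is given where a gene has several). Counted with the start as base 1, those of Bub1b (41), Ttk (8), Aurka (33), Cenpa (17) and Plk1 (31) lie just after the start, and those of Kif11 (19 bases), Mki67 (116), Cdk1 (71) and Ccnb2 (167) lie before it. Bub1b, Ttk, Kif11, Aurka and Mki67 were called higher in dnBrg1 lenses, Cenpa was called lower, and Cdk1, Plk1 and Ccnb2 were not called.
Bub1b (chr2:118598251-118598256): gacgttaaaTTTGAAactt
Ttk (chr9:83834696-83834701): cggggaaatTTCAAAcgtgtttcc
Kif11 (chr19:37376363-37376368): tctccatttTTCAAAattgaggcg
Aurka (chr2:172370533-172370538): aggagaaccTTTGAAttgtaacgg
Mki67 (chr7:135716490-135716495): gcgccagaaTTTGAAccgccgttt
Cenpa (chr5:30666902-30666907): gggtgatttTTTGAActgctggcg
Cdk1 (chr10:69352978-69352983): attggctccTTTGAAcgtctacgt
Plk1 (chr7:122159465-122159470): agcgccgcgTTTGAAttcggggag
Ccnb2 (chr9:70421716-70421721): ggactagaaTTTGAAaataagact

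The G1/S genes with an E2F-like match were Cdt1, Cdc6 and Cdk6, called lower in dnBrg1 lenses, and Cdk2 and Tyms, not called. Of all 17 G1/S genes 29.4% were called lower, and of all genes on the array 23.3%. A link between match and call was not tested. The Cdc6 call was lost without any 1 of several samples, and its sign turned with a covariate described below (0.50). With that covariate Cdt1 (-1.02) and Cdk6 (-2.75) were not called. Cdk6 also had low intensity, and its groups overlapped. Matches of the replication licensing genes Cdt1 and Cdc6 are shown, with the match in capitals (GCGGGAAA lies on the other strand).
Cdt1 (chr8:122568047-122568054): aactaccttTTTGGCGCcatggcgca
Cdc6 (chr11:98908013-98908020): cggtggagaGCGGGAAAtcgcctggg

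The 250 bases before the start of Bub1b (chr2:118597961-118598210, plus strand) and Ccnb2 (chr9:70421555-70421804, minus strand) are shown with CCAAT boxes and CHR matches in capitals (ATTGG is CCAAT on the other strand). The Bub1b stretch holds 1 CCAAT box and no CHR, its CHR lying after the start. The Ccnb2 stretch holds 3 CCAAT boxes and 1 CHR, and Ccnb2 has a further CHR match at base 5 after the start. Both genes act in mitosis and both have a CHR match after the start. Bub1b was called higher and Ccnb2 was not called.
Bub1b: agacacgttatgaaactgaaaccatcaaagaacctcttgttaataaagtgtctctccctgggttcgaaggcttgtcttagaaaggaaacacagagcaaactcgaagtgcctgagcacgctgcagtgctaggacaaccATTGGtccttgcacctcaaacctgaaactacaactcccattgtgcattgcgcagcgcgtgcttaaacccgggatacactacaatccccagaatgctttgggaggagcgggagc
Ccnb2: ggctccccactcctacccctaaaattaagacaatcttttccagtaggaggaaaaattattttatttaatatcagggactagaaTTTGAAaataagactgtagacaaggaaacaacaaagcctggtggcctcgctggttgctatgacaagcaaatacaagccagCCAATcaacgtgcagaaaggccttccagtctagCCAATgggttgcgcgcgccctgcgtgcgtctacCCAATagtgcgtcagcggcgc

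Some features of the whole series touch every value below. The 3′ minus 5′ difference of the β-actin array controls was 0.51 to 0.65 on the log2 scale in dnBrg1 and 1.85 to 2.96 in wild type samples, and that of the Gapdh controls was 0.65 to 0.69 in dnBrg1 and 1.0 to 2.36 in wild type samples (two-sided exact permutation p = 0.029 each, the smallest that 70 assignments allow). This measure of RNA quality did not overlap between the genotypes. Each result was also fitted with the mean of both differences as a covariate, called the control covariate here. Within dnBrg1 the differences hardly varied (SD 0.02 for Gapdh and 0.06 for β-actin, against 0.58 and 0.48 in wild type). The slope of the covariate therefore rests mainly on the wild type samples, and estimates with it extend that slope across a gap without samples. The median standard error of the members was 0.31 with this covariate and 0.14 without it. The submitters' descriptions name polysome-bound RNA for dnBrg1 replicates 1 and 2 and all wild type samples, although all 8 samples carry total RNA as their molecule. Summed intensities of 11 lens epithelium markers were 49606 to 52801 in dnBrg1 and 49359 to 52885 in wild type lenses, with 3 called higher and 3 lower, and those of 12 lens fiber markers were 125931 to 138538 in dnBrg1 and 131736 to 138283 in wild type lenses. Markers of macrophages (8 genes, 3 called higher and 2 lower) summed to 2382 to 4790 in dnBrg1 and 8102 to 9854 in wild type lenses. The 2 called lower, Csf1r (-2.13) and C1qb (-2.15), were the brightest in wild type, and the other macrophage markers had log2 fold changes above 0. Markers of retina and neurons (11 genes, 1 called higher and 7 lower) summed to 11420 to 16365 in dnBrg1 and 16690 to 24355 in wild type lenses. Markers of skeletal muscle (8 genes, 3 called higher and 0 lower) summed to 1245 to 6914 in dnBrg1 and 938 to 1469 in wild type lenses. Sums of periocular mesenchyme markers (7 genes, 0 called) were 1257 to 10122 in dnBrg1 and 2309 to 5086 in wild type lenses. Those of red blood cells (4 genes, 0 called) were 2631 to 13605 in dnBrg1 and 5125 to 8941 in wild type lenses. No marker was at 0, and the part of these cells in the results was not tested. Smarca4, the gene for Brg1, was higher with the dimmer of its probe sets (log2 fold change 2.35 ± 0.21, limma adjusted p = 4.8e-05) and did not pass with the brighter (-0.24 ± 0.11, adjusted p = 0.12). Which of them match the transgene was not examined.

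Cell cycle genes were called in both directions in dnBrg1 lenses. On the brightest probe set of each gene (its own probe set), 15 of 40 genes were called higher, 8 were called lower and 17 were not called, at a limma adjusted p under 0.05 over all probe sets. That is 57.5% of the members, against 40.7% of all 12393 genes. Of all genes, 17.5% were called higher and 23.3% lower, against 37.5% and 20% of the members. Most members are bright, and bright genes were called more often: probe sets with a mean of at least 7.69 log2 units, the array's median, are termed bright. Of the 36 bright members 14 were called higher and 7 lower (58.3% called), against 25% and 27.6% of all bright genes (52.6% called). The dnBrg1 and wild type samples did not overlap in 23 of 40 members and in 40.3% of all genes. In whole lenses, fewer cells of a type and less RNA per cell cannot be told apart. With the control covariate, 4 members were called higher (Pcna, Cdc26, Bub1b and Kif20a) and 0 lower, against 3.57% of all genes called higher and 2.76% lower (6.33% called). With dnBrg1 replicates 1 and 2 alone, whose RNA is described like that of wild type, 19 of the 23 called genes stayed called, and Ccne2, Cdk4, Cdk6 and Cdc6 did not.

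**Figure D1:**
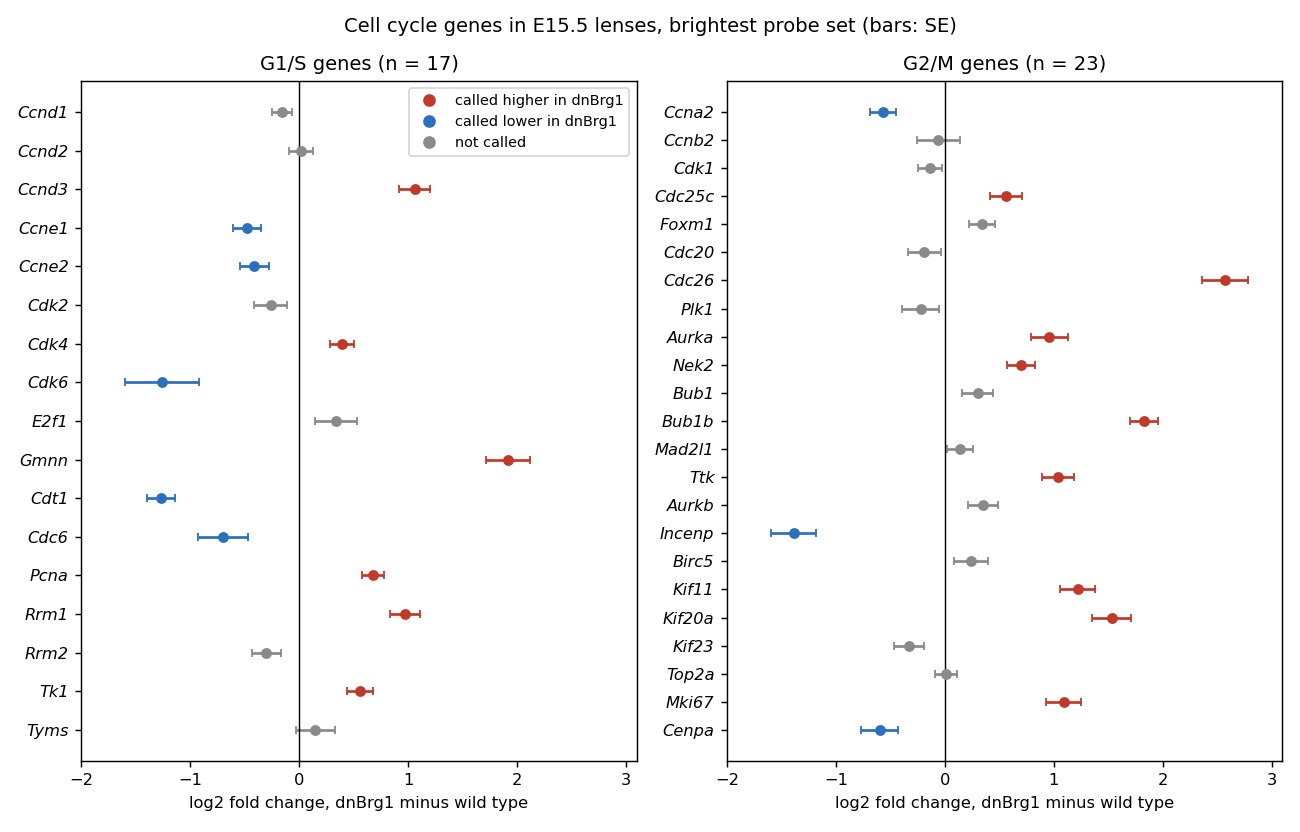
Log2 fold change (dnBrg1 minus wild type, x axis) of the own probe set of each of the 17 G1/S genes (left) and 23 G2/M genes (right), with bars for the standard error and n = 4 samples a group. Red points were called higher, blue lower and grey were not called; the changes run from -1.39 (Incenp) to 2.57 (Cdc26).

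Counts by role follow, each over 2 to 5 genes, and no role was tested as a set. Of all bright genes, 25% were called higher and 27.6% lower. Among the G1 cyclins, which carry growth signals to the cell cycle, 1 of 5 was called higher, 2 lower and 2 were not called. Ccnd3, a D-type cyclin, measured 11.32, 11.02, 11.41 and 11.03 (log2 intensity) in dnBrg1 replicates 1 to 4, against 10.20, 9.98, 10.40 and 9.95 in wild type replicates 1 to 4. All dnBrg1 samples lay above all wild type samples, a 2.08-fold increase (log2 fold change 1.06 ± 0.14, SE; limma adjusted p = 0.00037), which was 0.53 and not called with the control covariate. Ccne1, an E-type cyclin that opens S phase, measured 8.28, 8.32, 8.83 and 8.57 in dnBrg1 lenses, against 8.99, 9.08, 8.96 and 8.89 in wild type lenses. The groups did not overlap and Ccne1 fell by 0.48 ± 0.13 on the log2 scale (adjusted p = 0.018), but the call was lost without dnBrg1 replicate 1 or 2 (log2 fold changes from -0.59 to -0.41 with any sample left out) and with the control covariate (-0.42). Its relative Ccne2 measured 9.02, 9.14, 9.22 and 8.92 in dnBrg1 lenses, against 9.45, 9.81, 9.30 and 9.38 in wild type lenses, with wild type replicate 2 the highest. Ccne2 fell by 0.41 ± 0.13 (adjusted p = 0.034), and was no longer called when dnBrg1 replicate 1, 2 or 4 or wild type replicate 1 or 2 was left out, and its sign turned with the control covariate (0.12).

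Ccnd1, a D-type cyclin that growth signals induce, was not called with any of its 3 probe sets. The brightest measured 13.31, 13.20, 13.26 and 13.23 in dnBrg1 lenses, against 13.32, 13.39, 13.44 and 13.50 in wild type lenses. The dnBrg1 samples were all slightly below the wild type samples (log2 fold change -0.16 ± 0.09, adjusted p = 0.18). The probe set 1417420_at was at 0.39 ± 0.18 and passed as higher without wild type replicate 3. The dimmest, 1417419_at, was at -0.14 ± 0.18 and was called lower with the control covariate alone (-1.09).

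Ccnd2, the remaining D-type cyclin, had 7 probe sets that gave opposite answers. The brightest measured 12.73, 12.85, 12.95 and 12.72 in dnBrg1 lenses, against 12.75, 12.98, 12.72 and 12.73 in wild type lenses, and the groups overlapped (0.02 ± 0.11, adjusted p = 0.88). A dimmer probe set (1416122_at) measured 11.85, 11.71, 12.03 and 11.76 in dnBrg1 lenses, against 9.18, 8.23, 9.07 and 8.81 in wild type lenses. With it the groups were far apart, an 8.09-fold increase (3.02 ± 0.20, adjusted p = 1.4e-05), the strongest among the 73 member probe sets. Of the other Ccnd2 probe sets, 1455956_x_at (2.36), 1416123_at (2.23), 1430127_a_at (2.21) and 1448229_s_at (1.83) were also called higher. The probe set 1416124_at measured 10.29, 10.38, 9.94 and 10.02 in dnBrg1 lenses, against 11.24, 10.93, 11.35 and 11.09 in wild type lenses, and was called lower (-0.99 ± 0.14, adjusted p = 0.00046). With the control covariate, 1416122_at (2.0), 1455956_x_at (2.18) and 1430127_a_at (1.57) stayed called higher and 1416124_at (-1.45) stayed called lower, while 1416123_at (0.56) and 1448229_s_at (0.48) were not called.

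The G1 kinases that pair with these cyclins split as well, 1 higher, 1 lower and 1 not called. Cdk4 was called higher with all 3 of its probe sets (log2 fold changes 0.39, 0.45 and 0.41), although the call of the brightest was lost without dnBrg1 replicate 3 or wild type replicate 4, and with the control covariate it was 0.16 and not called. Cdk6 was dim, at 4.05, 4.02, 3.44 and 4.39 in dnBrg1 lenses, against 5.14, 4.27, 5.81 and 5.74 in wild type lenses. The groups overlapped at wild type replicate 2, and Cdk6 fell by 1.26 ± 0.34 (adjusted p = 0.015), with -2.75 and no call with the control covariate. Cdk2, the partner of E-type cyclins, was at -0.26 ± 0.15 and not called (adjusted p = 0.20), but passed as lower without dnBrg1 replicate 2.

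Replication licensing genes gave the clearest opposite pair in G1/S. Gmnn encodes geminin, which binds and blocks Cdt1, the factor that helps load the replicative helicase. Gmnn measured 11.26, 10.95, 11.65 and 11.05 in dnBrg1 lenses, against 9.36, 8.87, 9.38 and 9.62 in wild type lenses. Every dnBrg1 sample was above every wild type sample, a 3.78-fold increase (1.92 ± 0.20, adjusted p = 8.8e-05). Cdt1 measured 10.42, 10.37, 10.67 and 10.20 in dnBrg1 lenses, against 11.87, 11.76, 11.47 and 11.63 in wild type lenses. All dnBrg1 samples were below all wild type samples, and Cdt1 fell by 1.27 ± 0.13 (adjusted p = 0.0001), with a second probe set also called lower (-0.92 ± 0.12) and the dimmest not called (-0.18). Without any 1 sample the change stayed between 1.77 and 2.02 for Gmnn and between -1.35 and -1.20 for Cdt1. With the control covariate neither was called, at 1.41 for Gmnn and -1.02 for Cdt1.

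Cdc6, which loads the helicase with Cdt1, measured 8.40, 8.19, 8.68 and 7.94 in dnBrg1 lenses, against 8.99, 9.54, 8.43 and 9.04 in wild type lenses. The groups overlapped at wild type replicate 3, and Cdc6 fell by 0.70 ± 0.23 (adjusted p = 0.039). This call was lost when any 1 of dnBrg1 replicates 1, 2 and 4 or wild type replicates 1, 2 and 4 was left out, and the sign turned with the control covariate (0.50). E2f1, the activator that drives S phase genes, was at 0.34 ± 0.19 and not called (adjusted p = 0.17), and passed as higher without wild type replicate 3. With the control covariate it was -0.65 and not called. Its dim second probe set was at -0.25 ± 0.13 and not called.

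The replication clamp and the enzymes of nucleotide supply had 3 of 5 genes called higher and 0 lower. Pcna, the sliding clamp of DNA polymerases, measured 12.76, 12.60, 12.83 and 12.66 in dnBrg1 lenses, against 12.03, 12.13, 11.92 and 12.05 in wild type lenses. The groups did not overlap, a 1.60-fold increase (0.68 ± 0.10, adjusted p = 0.00057) that stayed called with the control covariate (0.91). Rrm1, the large subunit of ribonucleotide reductase, measured 10.43, 10.43, 10.90 and 10.30 in dnBrg1 lenses, against 9.49, 9.52, 9.53 and 9.64 in wild type lenses, a 1.96-fold increase (0.97 ± 0.14, adjusted p = 0.00048). Its dimmer probe set was called higher by more (2.81 ± 0.33). These were 0.98 and 1.18 with the control covariate, and not called. Tk1, which salvages thymidine, was called higher (0.56 ± 0.12, adjusted p = 0.0057), but not with that covariate (0.57). Rrm2, the small subunit, was not called with its brightest probe sets (-0.30 ± 0.13 and -0.26 ± 0.14) and was called higher with the third (1.30 ± 0.19), which was 0.20 and not called with the control covariate. Tyms, thymidylate synthase, was dim and not called with any of its 3 probe sets (0.05 to 0.26).

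**Figure D2:**
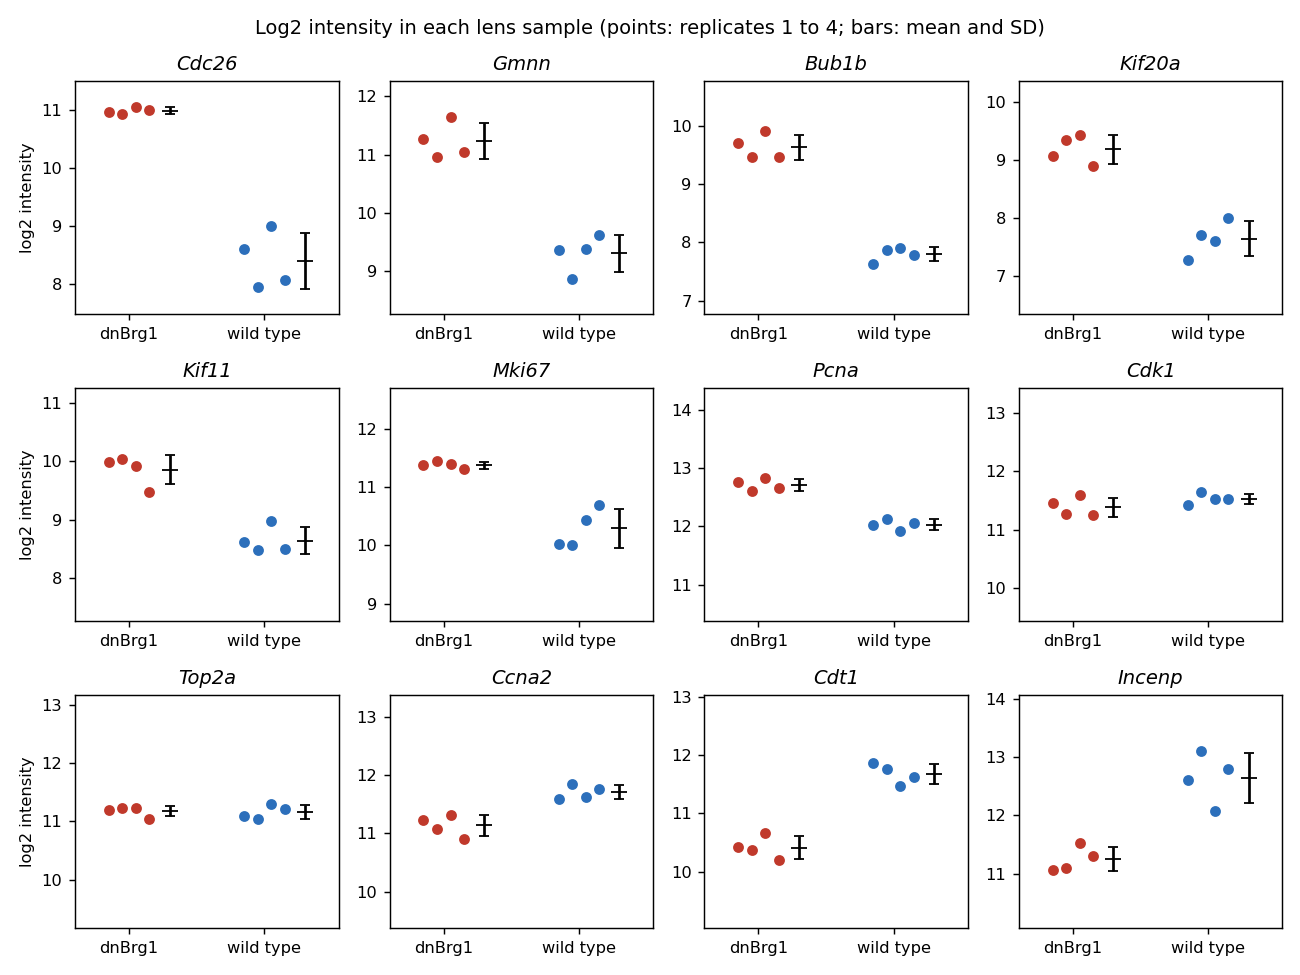
Log2 intensity (y axis, 4 log2 units in every panel) of 12 members in each dnBrg1 sample (red, left) and wild type sample (blue, right), with the mean and SD of 4 samples in black. Cdc26, Gmnn and Bub1b lay wholly above wild type, Cdt1 and Incenp wholly below, and Cdk1 and Top2a overlapped.

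The engine of mitosis itself, Cdk1 with its cyclins and activators, had 1 of 5 genes called higher, 1 lower and 3 not called. Cdk1 measured 11.45, 11.26, 11.59 and 11.25 in dnBrg1 lenses, against 11.42, 11.64, 11.52 and 11.53 in wild type lenses. The groups overlapped (-0.14 ± 0.11, adjusted p = 0.33). Ccna2, the cyclin of S phase and early mitosis, measured 11.23, 11.07, 11.32 and 10.91 in dnBrg1 lenses, against 11.59, 11.85, 11.63 and 11.76 in wild type lenses. All dnBrg1 samples were lower, and Ccna2 fell by 0.57 ± 0.12 (adjusted p = 0.0045), with its second probe set close to that (-0.55 ± 0.14). They were -0.29 and -0.33 with the control covariate, and not called. Ccnb2, a B-type cyclin, was at -0.06 ± 0.20 and not called. Cdc25c, a phosphatase that activates Cdk1, was called higher (0.56 ± 0.15, adjusted p = 0.014), but not with the control covariate (0.54).

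Foxm1, a transcription factor of G2/M genes, was dim with all 4 of its probe sets. The brightest measured 7.48, 7.73, 7.90 and 7.58 in dnBrg1 lenses, against 7.40, 7.49, 7.24 and 7.20 in wild type lenses, and just missed the threshold (0.34 ± 0.12, adjusted p = 0.051). It passed without dnBrg1 replicate 1 or wild type replicate 2. The probe set 1448833_at measured 7.5, 7.56, 7.5 and 7.25 in dnBrg1 lenses, against 6.80, 7.20, 6.95 and 7.15 in wild type lenses, and was called higher (0.43 ± 0.12). In contrast, 1448834_at measured 6.65, 6.54, 6.70 and 6.61 in dnBrg1 lenses, against 6.90, 6.97, 6.94 and 6.95 in wild type lenses, and was called lower (-0.32 ± 0.09). The first of these calls was lost without any 1 of dnBrg1 replicates 1 to 3 or wild type replicate 1, and the second without dnBrg1 replicate 2. Neither was called with the control covariate (0.81 and -0.28).

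Of the anaphase-promoting complex, the ubiquitin ligase that ends mitosis, Cdc26 gave the greatest increase of any member on its own probe set. Cdc26, a small subunit, measured 10.95, 10.93, 11.05 and 10.99 in dnBrg1 lenses, against 8.60, 7.96, 9.0 and 8.07 in wild type lenses. The dnBrg1 values were tightly grouped and all above wild type, a 5.95-fold increase (2.57 ± 0.21, adjusted p = 3.1e-05). It was 1.30 with the control covariate and stayed called. Cdc20, the activator of the complex in mitosis, was not called with its brightest probe set (-0.19 ± 0.15), while the others were called higher (1.28 ± 0.15 and 0.45 ± 0.14). The greater of these stayed called with the control covariate (1.72), and the call of the smaller was lost without any 1 of dnBrg1 replicates 1 and 3 and wild type replicates 1, 3 and 4 and with the control covariate (0.69).

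Among the mitotic kinases 2 of 3 genes were called higher. Aurka, which acts at centrosomes and the spindle, measured 11.08, 10.74, 10.84 and 10.55 in dnBrg1 lenses, against 9.42, 9.80, 10.04 and 10.10 in wild type lenses. The groups did not overlap, a 1.95-fold increase (0.96 ± 0.17, adjusted p = 0.0019). Nek2, a dim kinase gene of centrosome separation, was called higher as well (0.70 ± 0.13, adjusted p = 0.0025). Neither was called with the control covariate, at 0.90 for Aurka and 0.42 for Nek2. Plk1, the polo-like kinase of mitotic entry, was not called (-0.22 ± 0.17, adjusted p = 0.32), and passed as lower without dnBrg1 replicate 3.

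The spindle assembly checkpoint, which holds anaphase until chromosomes are attached, also had 2 of 4 genes called higher and 0 lower. Bub1b (BubR1), a checkpoint subunit that inhibits Cdc20, measured 9.70, 9.47, 9.90 and 9.46 in dnBrg1 lenses, against 7.63, 7.86, 7.90 and 7.79 in wild type lenses. Its 3.57-fold increase (1.83 ± 0.13, adjusted p = 1.7e-05) was nearly the same with the control covariate (1.82) and stayed called. Ttk (Mps1), the kinase that starts the checkpoint, measured 8.97, 8.64, 9.12 and 8.62 in dnBrg1 lenses, against 7.55, 7.92, 7.80 and 7.92 in wild type lenses, a 2.05-fold increase (1.04 ± 0.15, adjusted p = 0.0005). The Ttk change was 1.26 with the control covariate and not called. Bub1 (0.30 ± 0.14) and Mad2l1 (0.14 ± 0.12) were not called with their own probe sets, though Bub1 passed as higher without wild type replicate 2. A dim second probe set of Bub1 was called lower (-1.06 ± 0.31), a call lost without dnBrg1 replicate 2 or 4 or wild type replicate 4, and its sign turned with the control covariate (0.68).

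The chromosomal passenger complex had 0 of 3 genes called higher and 1 lower. Incenp, the scaffold of the complex, measured 11.07, 11.10, 11.52 and 11.31 in dnBrg1 lenses, against 12.60, 13.10, 12.08 and 12.79 in wild type lenses. The groups did not overlap and Incenp fell by 1.39 ± 0.21 (adjusted p = 0.00066). The wild type order, replicate 2 highest and replicate 3 lowest, was also the order of the control 3′ minus 5′ difference, and with the control covariate the change was -0.27 and not called. A second probe set (1423092_at) measured 8.13, 8.19, 8.44 and 7.89 in dnBrg1 lenses, against 9.66, 10.08, 8.86 and 9.73 in wild type lenses, and was also called lower (-1.42 ± 0.24), but was -0.08 and not called with the control covariate. The dimmest (1423093_at) went the other way, at 5.66, 5.73, 5.78 and 4.79 in dnBrg1 lenses, against 4.01, 3.83, 3.61 and 3.70 in wild type lenses (1.70 ± 0.22, adjusted p = 0.00029), and was 1.90 and not called with that covariate. Aurkb, the kinase of the complex (0.35 ± 0.14), and Birc5, survivin (0.24 ± 0.16), were not called, though Aurkb passed as higher without dnBrg1 replicate 4.

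Mitotic kinesins, the motors that build the spindle and finish division, had 2 of 3 genes called higher. Kif20a, which acts in cytokinesis, measured 9.07, 9.34, 9.42 and 8.89 in dnBrg1 lenses, against 7.28, 7.71, 7.60 and 8.01 in wild type lenses. The groups were apart, a 2.89-fold increase (1.53 ± 0.18, adjusted p = 0.00017), and Kif20a stayed called with the control covariate (1.85). Kif11 (Eg5), which pushes spindle poles apart, measured 9.98, 10.03, 9.92 and 9.48 in dnBrg1 lenses, against 8.61, 8.47, 8.97 and 8.50 in wild type lenses, a 2.32-fold increase (1.22 ± 0.16, adjusted p = 0.00033) that was 0.67 and not called with the control covariate. A dimmer Kif11 probe set agreed in direction (1452315_at, 0.94 ± 0.25), with 6.94, 7.07, 7.06 and 6.86 in dnBrg1 and 5.89, 5.30, 6.46 and 6.52 in wild type lenses, but turned in sign with the control covariate (-0.14). The third (1452314_at) was called lower (-0.51 ± 0.13), with 7.79, 7.68, 7.80 and 7.43 in dnBrg1 and 7.96, 8.20, 8.32 and 8.24 in wild type lenses, and was -0.55 and not called with that covariate. Kif23, a motor of the central spindle, was at -0.33 ± 0.14 and not called (it passed as lower without wild type replicate 3), and 1 of its dim probe sets was called higher (0.86 ± 0.20), with its sign turned by the control covariate (-0.06).

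Of the genes for chromosome structure, 1 was called higher, 1 lower and 1 was not called. Mki67, whose protein coats mitotic chromosomes and serves as a marker of dividing cells, measured 11.37, 11.44, 11.39 and 11.30 in dnBrg1 lenses, against 10.02, 10.01, 10.43 and 10.69 in wild type lenses. Every dnBrg1 sample was higher, a 2.12-fold increase (1.09 ± 0.16, adjusted p = 0.00058), which was 0.81 and not called with the control covariate. Top2a, the topoisomerase that untangles replicated chromosomes and also marks dividing cells, measured 11.19, 11.23, 11.23 and 11.05 in dnBrg1 lenses, against 11.09, 11.05, 11.30 and 11.21 in wild type lenses. The groups overlapped (0.01 ± 0.10, adjusted p = 0.92). Cenpa, the histone H3 variant of centromeres, measured 9.62, 9.46, 10.24 and 9.64 in dnBrg1 lenses, against 10.26, 10.30, 10.26 and 10.55 in wild type lenses. Cenpa fell by 0.60 ± 0.17 (adjusted p = 0.019), with dnBrg1 replicate 3 close to wild type, and the call was lost without any 1 of dnBrg1 replicates 1, 2 and 4 and wild type replicate 4 and with the control covariate (-0.52).

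The phases are set side by side here, and no difference between them was tested. Of 17 G1/S genes, 6 were called higher and 5 lower (35.3% and 29.4%), with a median log2 fold change of 0.02. Of 23 G2/M genes, 9 were called higher and 3 lower (39.1% and 13%), with a median of 0.30. The median over all genes was -0.11, and over all bright genes -0.04. The median deviation of the G2/M genes from each gene's mean was 0.13, 0.14, 0.40 and -0.08 in dnBrg1 replicates 1 to 4 and -0.15, -0.04, -0.26 and -0.10 in wild type replicates 1 to 4, so that dnBrg1 replicate 4 lay among the wild type samples. For G1/S genes it was -0.06, 0.05, 0.09 and -0.08 in dnBrg1 and -0.06, -0.21, -0.09 and 0.10 in wild type samples, which overlapped. On all 73 probe sets, 15 of 35 for G1/S genes were called higher and 7 lower, and 15 of 38 for G2/M genes were called higher and 8 lower, so that 20% and 21.1% were called lower. Medians over these probe sets were 0.26 for G1/S and 0.22 for G2/M, the reverse of the order on own probe sets. With the mean of a gene's probe sets the medians were 0.15 and 0.24. The order of the phases thus depended on the probe sets used. With dnBrg1 replicates 1 and 2 alone, 2 G1/S and 3 G2/M genes were called lower, and at an adjusted p under 0.01, 1 and 2. The 12 G2/M genes with a CHR match had 5 called higher, 1 lower and 6 not called, and the 5 with a window but no match (Birc5, Bub1, Cdc26, Mad2l1 and Nek2) had 2 called higher and 3 not called.

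Probe sets of the same gene can read different parts of its transcripts, so their agreement was examined for the 17 members that have several. In 4 of them (Ccnd2, Foxm1, Incenp and Kif11) probe sets were called in opposite directions, against 13.8% of the 4956 genes with several probe sets. In 8 genes the called probe sets shared a direction, and in 5 (Aurkb, Ccnd1, E2f1, Top2a and Tyms) none was called. Over all member probe sets, 30 were called higher and 15 lower (61.6% called), against 19.8% and 21% of all 22626 (40.8% called). The samples of the groups did not overlap in 44 of 73 member probe sets and in 40.1% of all. With the control covariate 8 member probe sets were called higher and 2 lower, against 6.37% of all called. Where probe sets disagree, the array does not give 1 answer for the gene, and probe positions were not used here.

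**Figure D3:**
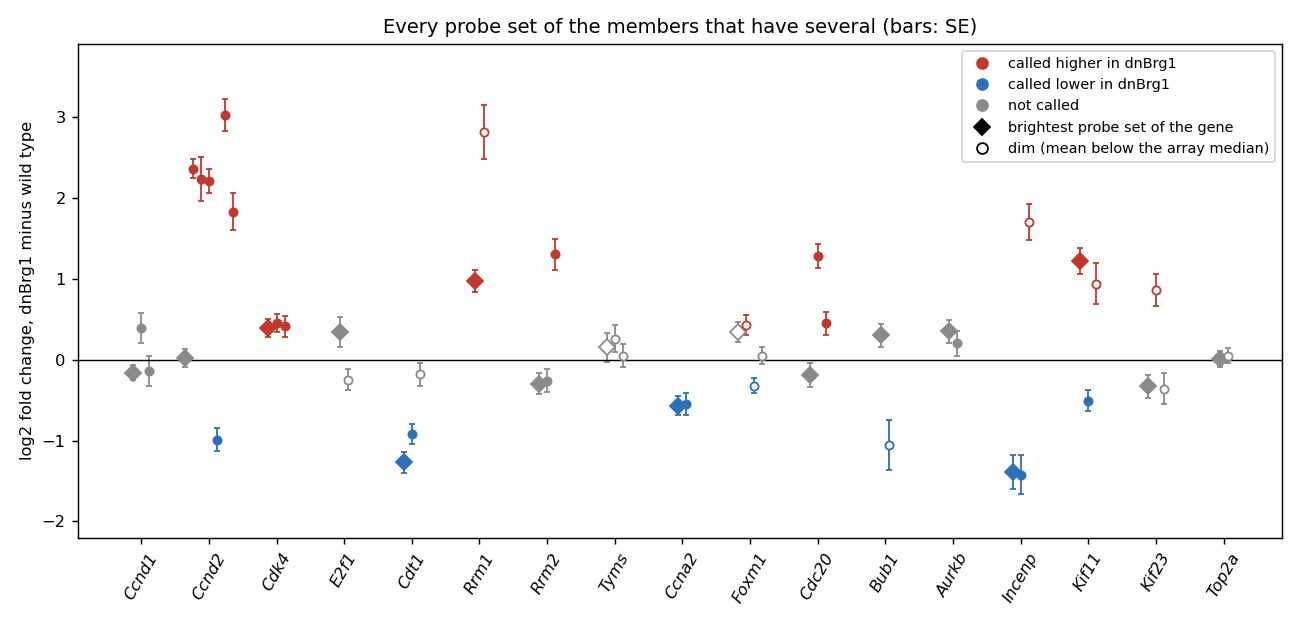
Log2 fold change (dnBrg1 minus wild type, y axis, bars for SE, n = 4 samples a group) of every probe set of the 17 members with several. Red was called higher, blue lower and grey not called; diamonds are the brightest probe set and open symbols are dim. Ccnd2, Foxm1, Incenp and Kif11 have red and blue symbols.

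The control covariate changed the members' estimates unevenly. Of the 23 called genes, 4 kept the call, 17 kept the sign and lost the call, and 2 (Ccne2 and Cdc6) changed sign. Estimates of Bub1b, Rrm1 and Tk1 hardly moved (1.82, 0.98 and 0.57), those of Kif20a, Ttk and Pcna were larger (1.85, 1.26 and 0.91), and those of Cdc26 and Incenp were nearer 0 (1.30 and -0.27). Wild type replicate 2, highest in the control difference, was the wild type sample farthest from the dnBrg1 mean in 5 of the 8 genes called lower and in 5 of the 15 called higher, where replicate 1 was farthest in 6. Wild type replicate 3, lowest in it, was the nearest in 5 of the 8 called lower and in 5 of the 15 called higher, where replicate 4 was nearest in 6. RNA quality and genotype cannot be told apart here, since the control difference did not overlap between the groups.

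**Figure D4:**
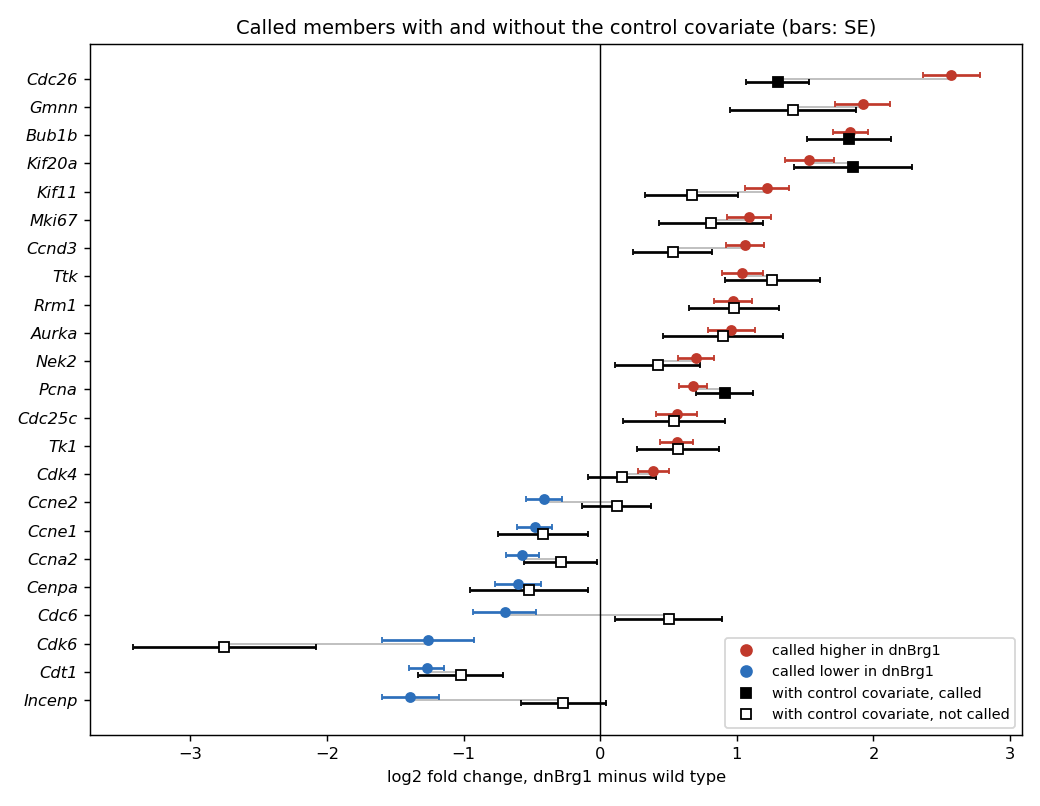
Log2 fold change (dnBrg1 minus wild type, x axis, bars for SE) of the 23 called members without (round, red higher, blue lower) and with (square) the control covariate, from n = 4 samples a group. Filled squares mark the 4 genes called with the covariate: Cdc26, Bub1b, Kif20a and Pcna.

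Other genes of the same machinery, in 7 lists that share no gene with the members, were called in both directions. Of 172 listed genes 141 were measured, 34 were called higher and 36 lower on their own probe sets (49.6%), with a median log2 fold change of -0.04. Of these 141 genes 125 were bright. On own probe sets 40.7% of all genes were called, and 52.6% of all bright genes (25% higher and 27.6% lower). The share called in these lists was thus near that of bright genes. The balance depended on the probe sets: with the mean of a gene's probe sets 45 were called higher and 24 lower, against 19.5% and 19.9% of all genes. Kinetochore and centromere genes had 3 of 23 called higher and 10 lower, with a median of -0.40: the dim motor gene Cenpe was higher (1.43), and Spc25 (-1.32) and Dsn1 (-1.32), of the outer kinetochore, were lower. Cenpf was also called lower (-0.93), a call lost without any 1 of 7 of the 8 samples, all but wild type replicate 3, and turned in sign with the control covariate (0.99). No gene of this list was called with that covariate, and its median was then 0.21. Replication genes had 11 of 34 called higher and 6 lower, led by Pold1 (-2.21), the catalytic subunit of polymerase δ, and Dut (1.87), which removes dUTP. Orc6 (1.29), of the origin complex, was also called higher, and Rfc4 (-1.35), of the clamp loader, was called lower, with its other probe set called the opposite way and a value of 0.03 with the control covariate.

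Anaphase-promoting complex genes had 5 of 14 called higher and 5 lower, with Ube2s (1.56), Anapc4 (1.04) and Anapc1 (0.97) higher and Anapc2 (-1.17) lower, beside Cdc26 (2.57). Ube2s (-0.04) and Anapc4 (-0.12) turned in sign with the control covariate, and Anapc2 was nearer 0 (-0.36). Spindle genes had 3 of 20 in each direction: Tacc3 (1.08), Haus1 (1.01) and Ckap5 (0.97) were higher and Hmmr (-1.26, but -0.03 with the control covariate) lower. Other cyclins and kinases had 8 of 25 called higher and 4 lower, with the dim Ccnt1 (1.29), Cks2 (1.28), Cdk9 (1.10) and Cdk7 (0.95) leading; Ccnt1, Cdk9 and Cdk7 act in transcription as well as or rather than in the cell cycle, and Cdk9 turned in sign with the control covariate (-0.20). Cohesin and condensin genes had 2 of 14 called higher and 4 lower: Smc3 (0.87) was higher, and Ncaph (-1.27), Ncaph2 (-1.01) and Smc1a (-0.94) were lower, with other probe sets of Ncaph2 and Smc1a called the opposite way and Smc1a at -0.10 with the control covariate. E2F and DREAM genes had 2 of 11 called higher and 4 lower, with Mybl1 (-1.58), Mybl2 (-1.18) and E2f3 (-1.13) lower but dim (Mybl2 at -0.13 with the covariate), and Lin9 (-0.56) lower with a call lost without any 1 of dnBrg1 replicates 3 and 4 and wild type replicates 3 and 4. With the control covariate Pold1 (-1.67), Orc5 (1.3), Ccnt1 (1.88), Cks2 (1.35), Smc3 (1.74) and Anapc1 (1.59) stayed called. The spindle genes Kif4 (1.34), Anln (1.68) and Ckap2 (1.97) were called higher with it and not called without it. The other genes named from these lists were not called with it.

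**Figure D5:**
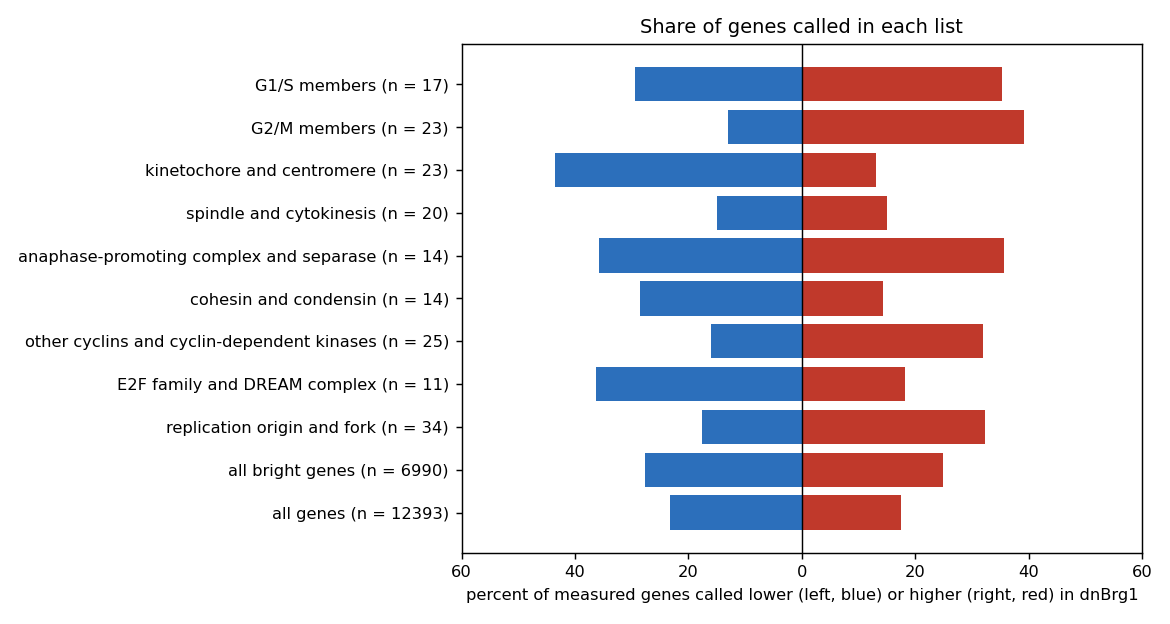
Percent of the measured genes of each group called higher (right, red) or lower (left, blue) in dnBrg1 lenses, with the number of genes beside each name. Members are at the top and all genes, 17.5% higher and 23.3% lower, at the bottom; kinetochore and centromere genes have 10 of 23 lower.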

How the data were processed

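RNA from 8 lens samples (4 dnBrg1, 4 wild type; 50 ng total RNA each, amplified and biotin-labeled) was hybridized to Affymetrix mouse expression arrays. The authors deposited linear intensities made by robust multichip average (RMA; version not given in the sources used here), which removes shifts shared by most transcripts. They were taken to log2. Of 22690 probe sets 64 array controls were left out, and 22626 were fitted with limma 3.58.1 (lmFit, eBayes; R 4.3.3) as dnBrg1 minus wild type, with Benjamini-Hochberg adjustment over all of them. Groups came from the genotype labels, and p-values measure the spread between samples called biological replicates. The number of arrays limits the precision; median intensity was 196.9 to 209.1.

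A gene's own probe set has the highest mean among those naming it alone; 2 probe sets naming Tyms or Foxm1 with other genes were not used. Members and lists were chosen with earlier results of these data known, so no list or phase was tested as a set. Values in every sample are given for the 10 called members of largest increase, up to 10 of largest decrease, members with probe sets called in opposite directions, and Ccnd1, Ccne1, Pcna, Cdk1, Mki67 and Top2a. From each other list up to 4 called genes of largest change are named, with any further gene called with the control covariate. Alternatives were another scaling, 16 added before the log, leaving out dim probe sets, variance models, array weights, a replicate block, dnBrg1 replicates 1 and 2 alone, the control covariate, stricter thresholds, the methods' t-test, each sample left out, the mean of a gene's probe sets, and periodic members alone. Significance analysis of microarrays was not run. The main limma fit of dnBrg1 against wild type was also run on simulated data. These had independent noise, few changed probe sets and no difference in RNA quality between the groups. That run checks the working of the fit and does not bear on the calls made here.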

Additional observations from a re-analysis of the deposited data

Results flagged for a closer look

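Each group of 4 samples was examined for a sample far from the others on the own probe set of each member, and 3 of 80 groups stood out, where chance gives about 5%. Rrm2 was at 12.13 in dnBrg1 replicate 4, with the nearest of the other dnBrg1 samples at 12.48. Ccnd2 was at 12.98 in wild type replicate 2, with the nearest of the other wild type samples at 12.75. Cenpa was at 10.55 in wild type replicate 4, with the nearest of the others at 10.30, and without that sample Cenpa was no longer called.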

How the results depend on the processing

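Scaling, the added constant, the filter on dim probe sets, the variance models and array weights kept the call of every called member gene they could test (23 of 23, or 21 of 21 bright ones). The control covariate gave 808 probe sets higher and 634 lower over the array, 8 and 2 of the members, 4 and 0 member genes, 1 and 0 in G1/S, 3 and 0 in G2/M (median 0.54), and 8 and 1 genes of the other lists. It turned the sign of Ccne2 (0.12), Cdc6 (0.50), Bub1 1438571_at (0.68), Kif11 1452315_at (-0.14) and Kif23 1453748_a_at (-0.06). With dnBrg1 replicates 1 and 2 alone, lower calls were 2600 over the array, 9 member probe sets, 5 member genes, 2 in G1/S and 19 in other lists. An adjusted p under 0.01 left 2820, 7, 3, 1 and 22 lower, and a 1.5-fold minimum 2996, 9, 5, 3 and 22. The methods' t-test after Benjamini-Hochberg adjustment left 3 G1/S genes lower. The G1/S median was 0.15 with the mean of a gene's probe sets and 0.15 over periodic genes alone, and the G2/M median was 0.24 and 0.32. With any 1 sample left out, 4 to 9 member genes and 2 to 5 G1/S genes were called lower, fewest without dnBrg1 replicate 1, and the control differences ran from -1.13 to -0.67 for Gapdh and from -2.14 to -1.77 for β-actin (exact permutation p = 0.0571, the smallest such a design allows). Same-numbered samples did not deviate together (correlations -0.19, -0.01, -0.05 and 0.16); with the replicate number as a block 21 of 23 member genes stayed called, with 3 G1/S genes lower. The cause of these changes was not tested. Dim members (Cdk6, Nek2, Tyms, Foxm1) lie where arrays separate levels least.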
